A study of Mus musculus with 4 samples.

Results

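The genes described are 9 of the 22266 in the table: the retinoic acid binding proteins Crabp1 and Crabp2, the retinol carrier receptor Stra6, the nuclear receptors Rara, Rarb, Rarg and Rxra, and the metabolic enzymes Cyp26a1 and Dhrs3. They were picked by name after Crabp1 and Crabp2 had been seen to lie on opposite sides of their controls in the comparison used here. The values of that comparison are therefore given as a description, with standard errors and without p-values. The question is whether the receptors and the genes they control directly lie to the side of Crabp1 or of Crabp2. Of the 9, 5 had a mean of at least 1 TPM (transcripts per 1000000 transcripts, corrected for length) over the libraries and entered the fit across genes: Crabp1, Crabp2, Rara, Rarg and Rxra. The other 4 (Rarb, Stra6, Cyp26a1 and Dhrs3) were under that level.

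Poly(A) RNA was sequenced from female mouse embryonic stem cells of the line PGK12.1, grown on gelatin in serum with leukemia inhibitory factor (LIF), in which the Cbx2 gene is floxed and carries a HaloTag (CBX2fl/fl-HaloTag). CBX2 is a chromodomain subunit of Polycomb repressive complex 1. The EtOH group (n = 2, day 0, genotype given as wildtype) received the solvent ethanol, and the OHT group (n = 2, day 2, genotype given as knockout) received 1.0 µM 4-hydroxytamoxifen for 48 hours to delete Cbx2. All 4 libraries share the modified allele and batch 2. The labels name neither the recombinase nor the deleted exons, and no library combines the drug with intact Cbx2, so drug, time in culture and deletion cannot be told apart. Separate cultures are not named for the replicates, so a p-value here measures the spread of these libraries alone, which may be technical.

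Retinoic acid is made from retinol, which cells take up through receptors such as STRA6. In the cytoplasm it is bound by CRABP1 and CRABP2. CRABP2 is known for handing it to nuclear receptors, and CRABP1 for holding it in the cytoplasm and passing it to breakdown. The receptors RARα, RARβ and RARγ bind DNA as partners of RXR at direct repeats of a hexamer, the retinoic acid response elements. Rarb, Cyp26a1, Dhrs3 and Stra6 are classical genes induced through such elements, and embryonic stem cells given retinoic acid leave the pluripotent state.

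Upstream sequences were taken from RefSeq (build GRCm38.p6), which matched 8 of the 9 genes, all but Crabp2, with 18 start sites among them. The 250 bases before each start were searched on either strand for the hexamer AGGTCA, the related AGTTCA, the variant GGGTCA and, as the remaining variant, GGTTCA, in direct repeats separated by 1, 2 or 5 bases. Only Rarb and Cyp26a1 held such a repeat, in each case with a spacer of 5 bases, an arrangement found in 0.0883% of 32851 promoter windows of the same length. The repeats with spacers of 1 and 2 bases, found in 0.164% and 0.174% of windows, were in no window of the 8 genes. The stretches below show these repeats in capitals. The Rarb stretch (chr14:16575507-16575535, minus strand) holds the repeat 53 to 37 bases before the RefSeq start. The repeat overlaps an annotated GENCODE exon, whose gene and strand were not checked, so only the repeat with its flanks is shown. The Cyp26a1 stretch (chr19:37697558-37697797, plus strand) ends where the annotated transcript begins. Its repeat lies 32 to 16 bases before the RefSeq start and reads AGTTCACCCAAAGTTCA on the opposite strand.
Rarb: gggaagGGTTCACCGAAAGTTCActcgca
Cyp26a1: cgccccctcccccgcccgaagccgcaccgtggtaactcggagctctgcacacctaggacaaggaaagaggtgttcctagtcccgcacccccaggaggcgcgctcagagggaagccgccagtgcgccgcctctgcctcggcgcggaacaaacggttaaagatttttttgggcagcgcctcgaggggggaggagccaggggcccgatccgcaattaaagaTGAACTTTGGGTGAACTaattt

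The 250 bases upstream of Crabp1 (chr9:54764498-54764747, plus strand, GRCm38.p6), shown because Crabp1 is the binding protein gene with the higher level, held none of the 4 hexamers. They are printed with CpG dinucleotides in capitals. There were 12, where the median promoter window held 6 and 33.5% of windows held at least as many. A match, or its absence, describes the letters in these windows only.
Crabp1: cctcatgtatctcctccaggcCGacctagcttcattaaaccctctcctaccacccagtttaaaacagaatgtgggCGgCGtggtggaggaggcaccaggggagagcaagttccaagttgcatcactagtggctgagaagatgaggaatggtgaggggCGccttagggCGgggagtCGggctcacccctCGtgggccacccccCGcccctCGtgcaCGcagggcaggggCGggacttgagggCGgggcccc

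The libraries as a whole were those of embryonic stem cells. All 8 stem cell markers were at a mean of 168 TPM or more (Pou5f1, Nanog, Sox2, Zfp42, Esrrb, Klf4, Dppa5a and Tdgf1). Cbx2 read 2.29 and 2.71 TPM with EtOH, against 0.749 and 1.14 TPM with OHT, the direction the labels give. Sequencing depth cannot be read from TPM and is unknown for every value. In the fit across 12029 genes, limma called 5 at an adjusted p under 0.05, and the median log2 difference of all genes tested was 0.02, with -0.09 for OHT replicate 1 and 0.14 for OHT replicate 2. The OHT libraries differed from each other more than the EtOH libraries (SD of the log2 difference over genes 0.35 against 0.18). Across 12016 genes, which are not independent replicates and share the same libraries, the log2 difference of OHT replicate 2 from OHT replicate 1 correlated with log2 transcript length (Pearson r = 0.53). Shorter transcripts were relatively higher in OHT replicate 1 and longer ones in OHT replicate 2.

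Crabp1 (ENSMUSG00000032291.9, chromosome 9, 54764748 to 54773110, plus strand, protein-coding) read 25.4 and 22.5 TPM with EtOH, against 43.4 and 35.0 TPM with OHT. The OHT pair lay wholly above the EtOH pair. The group means were 24.0 ± 1.99 and 39.2 ± 5.93 TPM (SD, n = 2 each), a ratio of 1.64, and the difference on the log2(TPM + 1) scale was 0.68 (SE 0.16). The difference was 0.83 for OHT replicate 1 and 0.53 for OHT replicate 2 when each was set against the mean of the EtOH pair. In bulk RNA, a change in the share of cells that express a gene and a change in the RNA per cell cannot be told apart.

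Crabp2 (ENSMUSG00000004885.6, chromosome 3, 87948666 to 87953376, plus strand, protein-coding) lay on the other side. It read 9.08 and 9.64 TPM with EtOH, against 5.94 and 5.13 TPM with OHT, so the OHT pair was wholly below the EtOH pair. The means were 9.36 ± 0.401 and 5.54 ± 0.569 TPM (SD, n = 2 each), a ratio of 0.591. The log2 difference was -0.67 (SE 0.18), with -0.58 for OHT replicate 1 and -0.76 for OHT replicate 2. The longest annotated transcripts of Crabp1 and Crabp2 are similar in length, 802 and 931 bases. Neither gene has a near-identical copy among the annotated transcripts, nor exon bases shared with another gene.

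The balance of the binding proteins can be read within each library, where the scaling of the library cancels. Crabp1 exceeded Crabp2 by 2.79 and 2.34 times with EtOH and by 7.32 and 6.83 times with OHT. The OHT libraries lay close together and far above the EtOH libraries, with a mean log2 ratio of 2.82 ± 0.07 against 1.35 ± 0.18 (SD, n = 2 each). Summed over both genes, TPM came to 34.4 and 32.2 with EtOH, against 49.4 and 40.2 with OHT. Since the pair was chosen for this opposite movement, the ratio restates it and is not separate evidence.

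**Figure D1:**
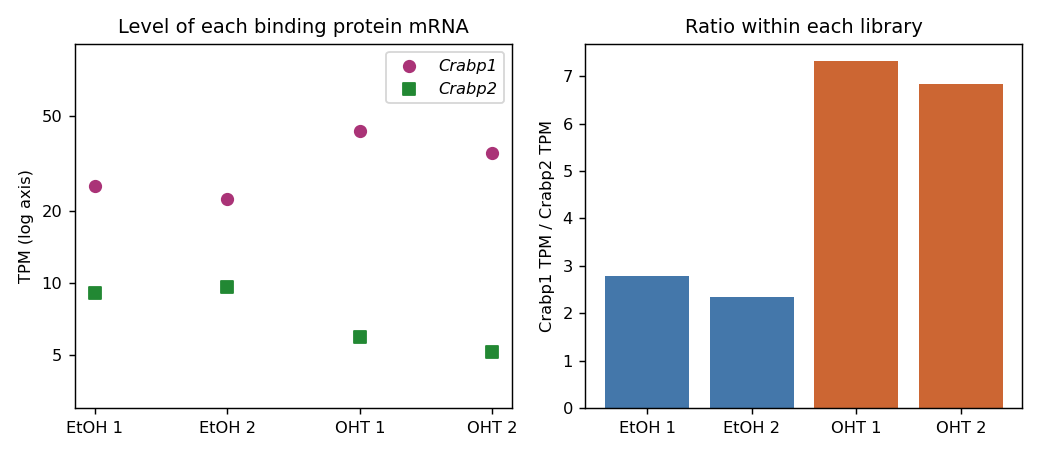
Left, TPM of Crabp1 (circles) and Crabp2 (squares) in each library on a log axis. Right, the ratio of Crabp1 to Crabp2 TPM in each library, at 2.79 and 2.34 with EtOH, against 7.32 and 6.83 with OHT.

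Rarg was the most abundant of the 9 genes and the main retinoic acid receptor mRNA in these cells. It read 111 and 101 TPM with EtOH, against 99.7 and 116 TPM with OHT, and the groups overlapped. Its log2 difference was 0.02 (SE 0.12). The sign depended on the library, at -0.08 for OHT replicate 1 and 0.13 for OHT replicate 2.

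Rara, the receptor with broad expression across tissues, read 11.9 and 11.8 TPM with EtOH, against 11.0 and 13.5 TPM with OHT. The EtOH libraries lay between the OHT libraries. The log2 difference was 0.04 (SE 0.17), again with opposite signs in OHT replicate 1 (-0.10) and OHT replicate 2 (0.17). Given these errors, the difference of Rara or Rarg could not be told from 0, which does not show that it is 0. Neither receptor lay to the side of Crabp1 or of Crabp2 in both OHT libraries. The median of all genes tested changed sign in the same way, at -0.09 for OHT replicate 1 and 0.14 for OHT replicate 2.

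Rarb, the receptor whose own upstream sequence holds the repeat shown above, was near 0 in every library. It was listed at 0.0898 and 0.0504 TPM with EtOH, against at 0.0355 and 0 TPM with OHT. The OHT libraries lay lower, at levels where no ratio can be read. Rarb also shares exon bases with Top2b and the antisense gene Gm48162 on the opposite strand, and whether the libraries kept strand is not given in the sources used here. Of the TPM summed over the 3 retinoic acid receptors, Rarg made up 90.2% and 89.5% with EtOH and 90.0% and 89.6% with OHT. Rara made up 9.70% and 10.4% with EtOH and 9.93% and 10.4% with OHT. The shares of Rarg and Rara thus differed between groups by less than between replicates. The summed level was 123 and 113 TPM with EtOH, against 111 and 129 TPM with OHT, which overlapped too.

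Rxra, the shared partner of the retinoic acid receptors and of several other nuclear receptors, read 16.8 TPM in each EtOH library and 19.7 and 26.9 TPM with OHT. Both OHT libraries lay above the EtOH libraries, but far apart from each other. The log2 difference was 0.44 (SE 0.19), with 0.22 for OHT replicate 1 and 0.65 for OHT replicate 2, so leaving out OHT replicate 2 cuts it to 0.22. Its longest annotated transcript has 4905 bases, the longest among the 9 genes, and the difference was 0.30 once trends with transcript length and GC content were removed. The part of that trend in the result was not tested further. Rxrb, another RXR gene, read 24.8 and 27.8 TPM with EtOH, against 27.3 and 27.2 TPM with OHT (log2 difference 0.05, SE 0.14, limma adjusted p = 0.929). Rxrg was under the level tested.

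**Figure D2:**
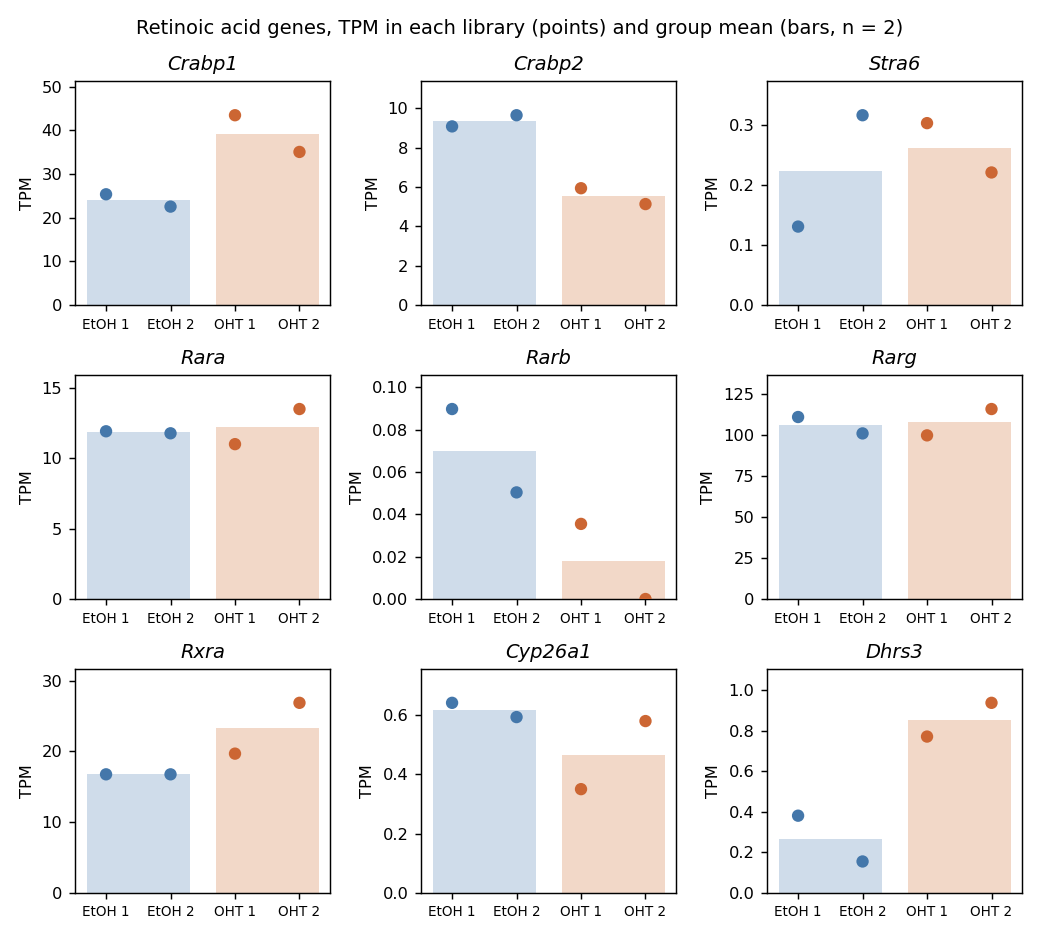
TPM of each of the 9 genes (points, libraries; bars, group means, n = 2; every axis starts at 0). Crabp1, Rxra and Dhrs3 have both OHT libraries above the EtOH libraries, Crabp2, Rarb and Cyp26a1 have both below, and Rara, Rarg and Stra6 overlap.

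The inducible genes were low and did not lie to a common side. Cyp26a1, the enzyme gene for retinoic acid breakdown whose upstream sequence holds the other repeat, read 0.642 and 0.594 TPM with EtOH, against 0.350 and 0.580 TPM with OHT. OHT replicate 2 was barely below the EtOH libraries. The log2(TPM + 1) difference was -0.15, and -0.03 without OHT replicate 1.

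Dhrs3 encodes a reductase that turns retinaldehyde back into retinol and so limits retinoic acid synthesis. It read 0.381 and 0.155 TPM with EtOH, against 0.772 and 0.938 TPM with OHT. The OHT pair lay wholly above the EtOH pair, and the ratio of the means, 0.855 ± 0.118 over 0.268 ± 0.160 TPM (SD, n = 2 each), was 3.19. All 4 values are under 1 TPM and their depth is unknown. The log2 difference was 0.55 with a pseudocount of 1 TPM, 1.44 with 0.1 and 0.15 with 5.

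Stra6, the cell surface receptor for the retinol carrier RBP4, read 0.131 and 0.316 TPM with EtOH, against 0.303 and 0.221 TPM with OHT. The EtOH libraries differed more than the group means did, and the groups overlapped.

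None of the 5 genes tested was among the limma calls at an adjusted p under 0.05, where 0.0416% of the 12029 genes were. No count at an unadjusted p is given for them, since Crabp1 and Crabp2 were picked for their movement in this comparison. Among the 5, the OHT pair was wholly above the EtOH pair for 2 and wholly below for 1, where 23.1% and 19.4% of all genes tested did so. Over all 9, the counts were 3 above and 3 below, where 21.6% and 18.3% of the 17757 genes above 0 in a library did so. These genes were chosen on this comparison, and nothing is read from their counts. Set beside Crabp1 and Crabp2, then, Rxra and Dhrs3 lay on the side of Crabp1. Cyp26a1 and Rarb lay on the side of Crabp2, and Rara, Rarg and Stra6 on neither. Dhrs3, Cyp26a1 and Rarb were under 1 TPM in every library, so their sides rest on values near the floor. For Cyp26a1, OHT replicate 2 was barely below the EtOH libraries, and for Rarb no ratio can be read.

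**Figure D3:**
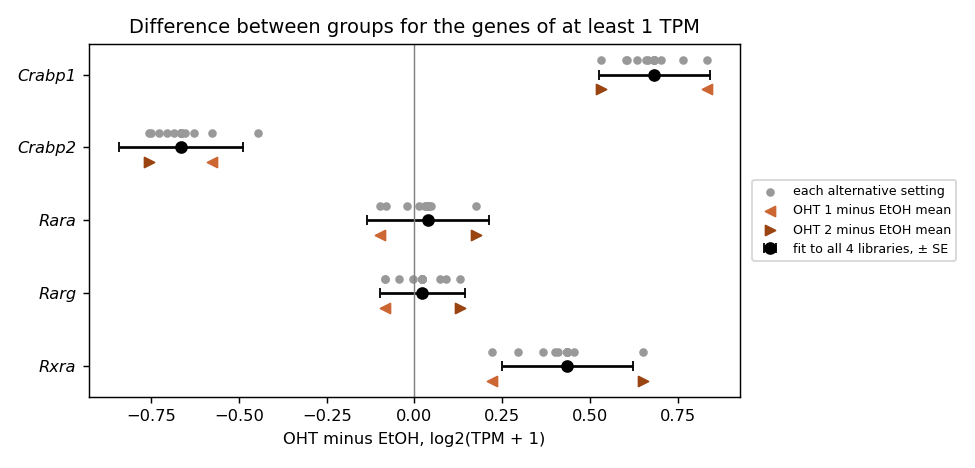
Difference between OHT and EtOH on the log2(TPM + 1) scale for the 5 genes of at least 1 TPM: the fit to all 4 libraries with its SE (black), each OHT library against the EtOH mean (triangles) and each alternative setting (grey). Crabp1 (0.53 to 0.83) and Crabp2 (-0.76 to -0.45) keep their sides throughout, while Rara and Rarg lie on either side of 0. Most settings could not turn a gene whose pairs do not overlap.

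In order of mean level, EtOH cells held Rarg, Crabp1, Rxra, Rara, Crabp2, Cyp26a1, Dhrs3, Stra6 and Rarb. The libraries of neighbours in this order did not overlap, except those of Dhrs3 and Stra6. With OHT the order was the same apart from Dhrs3, which stood above Cyp26a1, and no neighbours overlapped. Crabp1 and Crabp2 together amounted to 0.280 and 0.286 of the summed TPM of the retinoic acid receptors with EtOH and to 0.446 and 0.311 with OHT.

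Crabp1 is also expressed by fibroblasts and neural cells, so markers of other cell types were read beside it. Of 10 fibroblast and feeder cell markers, 8 were under 1 TPM, and Postn and Twist2 were at 0 in all 4 libraries. The OHT pair lay wholly above the EtOH pair for 4 of the 10 and wholly below for 1, Dcn, where 21.6% and 18.3% of genes above 0 in a library did so. The 4 were Thy1, S100a4, Col1a1 and Col1a2, with ratios of the means of 1.57, 1.98, 2.11 and 2.12, so they lay on the side of Crabp1. Col1a1 and Col1a2 were under 1 TPM in every library. Col1a2 read 0.0903 and 0.0757 TPM with EtOH, against 0.258 and 0.0940 TPM with OHT, too low for its ratio to be relied on. S100a4 had an EtOH mean of 0.818 TPM and reached the level tested through the OHT libraries. The summed level of the 10 was 7.86 and 6.79 TPM with EtOH, against 10.4 and 13.5 TPM with OHT, most of it Thy1 (6.41 and 5.43, then 7.64 and 10.9 TPM). Of the 4, Thy1 and Col1a1 were higher in OHT replicate 2, and S100a4 and Col1a2 in OHT replicate 1, the OHT library with more Crabp1. The 10 neural markers summed to 222 and 220 TPM with EtOH, against 184 and 195 TPM with OHT, with Neurog2 at 0 in all 4. Most of that sum was Tubb3 (195 and 192, then 160 and 165 TPM), and its members lay on both sides. Sox1 read 3.10 and 2.62 TPM with EtOH, against 5.28 and 6.77 TPM with OHT, wholly above. Pax6 lay wholly below, with means of 7.45 ± 0.161 and then 3.39 ± 0.303 TPM (SD, n = 2 each). The 12 endoderm markers summed to 38.9 and 43.0 TPM with EtOH, against 37.2 and 54.3 TPM with OHT. Of the 12, 6 were under 1 TPM. The OHT pair lay wholly above the EtOH pair for 3 and wholly below for 4, beside the same 21.6% and 18.3%. The 8 trophoblast markers summed to 56.4 and 55.3 TPM with EtOH, against 60.7 and 64.7 TPM with OHT. Among them 3 lay wholly above and 0 wholly below, beside those shares. Of the 8 stem cell markers, 7 had the OHT pair above the EtOH pair, where 23.1% of all genes tested did. Their sums were 9318 and 9261 TPM with EtOH, against 12256 and 10989 TPM with OHT. Much of that was Dppa5a (4733 and 4612, then 7089 and 5623 TPM). No marker was among the limma calls. The part of these other cell types in the values of Crabp1 and Crabp2 was not tested.

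The rest of the pathway was read from a list of 87 other genes, chosen by function. Of these, 47 reached the level tested. With limma, none passed in either direction at an adjusted p under 0.05. At an unadjusted p under 0.05 stood 5, of which 2 were higher and 3 lower with OHT, where 6.02% and 4.46% of all genes tested were. The OHT pair lay wholly above the EtOH pair for 14 of the 47 and wholly below for 8, where 23.1% and 19.4% of all genes tested did so. The median log2 difference was 0.14, against 0.02 over all genes tested, but it was -0.06 for OHT replicate 1 and 0.29 for OHT replicate 2. The direction of the list as a whole thus turned with the library, as did the median of all genes tested (-0.09 and 0.14).

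Genes of retinoid uptake, storage and synthesis lay on both sides. Of 29, 14 were tested, 5 with both OHT libraries above and 6 with both below, beside 23.1% and 19.4% of all genes tested, and the median was -0.12. Aldh1a3, a retinaldehyde dehydrogenase that makes retinoic acid, read 5.61 and 5.80 TPM with EtOH, against 4.50 and 3.76 TPM with OHT (log2 difference -0.39, SE 0.18). Both OHT libraries were lower, as they were for the alcohol dehydrogenase gene Adh4 (1.96 ± 0.221 and 1.09 ± 0.0163 TPM, SD, n = 2 each). On the higher side, Rbp7 read 5.31 and 5.07 TPM with EtOH, against 6.54 and 7.74 TPM with OHT, and Retsat, a retinol saturase, 16.5 and 15.2 and then 16.7 and 21.7 TPM. Rbp4, the secreted carrier, overlapped between groups. The remaining breakdown enzymes, Cyp26b1 and Cyp26c1, were under 1 TPM.

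Among the 9 other receptors and carriers, 5 were tested. Fabp5, a fatty acid binding protein known to carry retinoic acid to PPARδ, read 28.8 and 28.3 TPM with EtOH, against 19.1 and 22.6 TPM with OHT (-0.44, SE 0.15, limma adjusted p = 0.400). Ppard, which encodes that receptor, read 7.41 and 6.83 TPM and then 8.15 and 11.8 TPM (0.42, SE 0.22). Fabp5 thus lay on the side of Crabp2 and Ppard on the other side. Nr2c1, an orphan receptor, had a log2 difference of 0.18 (SE 0.18).

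All 18 receptor coregulators were tested, and 16 overlapped between groups, as did 6924 of all 12029 genes tested. Nrip1, a corepressor that retinoic acid itself induces, was the exception on the higher side, at 1.72 and 1.88 TPM with EtOH, against 3.21 and 3.58 TPM with OHT (0.65, SE 0.17, limma adjusted p = 0.308). Park7 lay lower (-0.12, SE 0.09). Ncoa1 (0.39, SE 0.23), Tbl1xr1 (0.24, SE 0.17) and Asxl1 (-0.25, SE 0.23) came next in p in their directions and overlapped. The corepressor deacetylase gene Hdac3 (-0.05, SE 0.12) overlapped too. The median of the group was -0.17 for OHT replicate 1 and 0.44 for OHT replicate 2. Its median longest transcript has 7828 bases, against 3272 over all genes tested.

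Of 30 genes known to be induced by retinoic acid, 11 were tested, with a median log2 difference of 0.26, and the group's median had the same sign in OHT replicate 1 (0.20) and OHT replicate 2 (0.31). The OHT pair lay wholly above the EtOH pair for 7 of the 11 and wholly below for none, against a background of 23.1% and 19.4% of all genes tested. Of these 11, 2 had an EtOH mean under 1 TPM and reached the level tested through the OHT libraries. Tgm2, a transglutaminase, read 3.61 and 3.52 TPM with EtOH, against 5.94 and 8.64 TPM with OHT (0.84, SE 0.22, limma adjusted p = 0.302). Btg2, an antiproliferative gene, read 41.1 and 41.0 TPM and then 45.8 and 54.5 TPM (0.28, SE 0.13).

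Over all 30 inducible genes, of which 19 were under 1 TPM, the OHT pair was wholly above the EtOH pair for 15 and wholly below for 1, Rarres1, against 21.6% and 18.3% of genes above 0 in a library. Of those 15, 5 are Hox genes, a family whose higher level in these OHT libraries was known beforehand. The remaining 10, named after their values were seen, were Stra8, Tgm2, Nr2f1, Zfp703, Foxa1, Rarres2, Hic1, Plaat3, Btg2 and Nrip1. Nr2f1, an orphan nuclear receptor of neural development, read 0.319 and 0.580 TPM with EtOH, against 0.645 and 1.20 TPM with OHT. Whether this group differs from other genes was not tested, and many of these genes are known to respond to other signals as well.

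**Figure D4:**
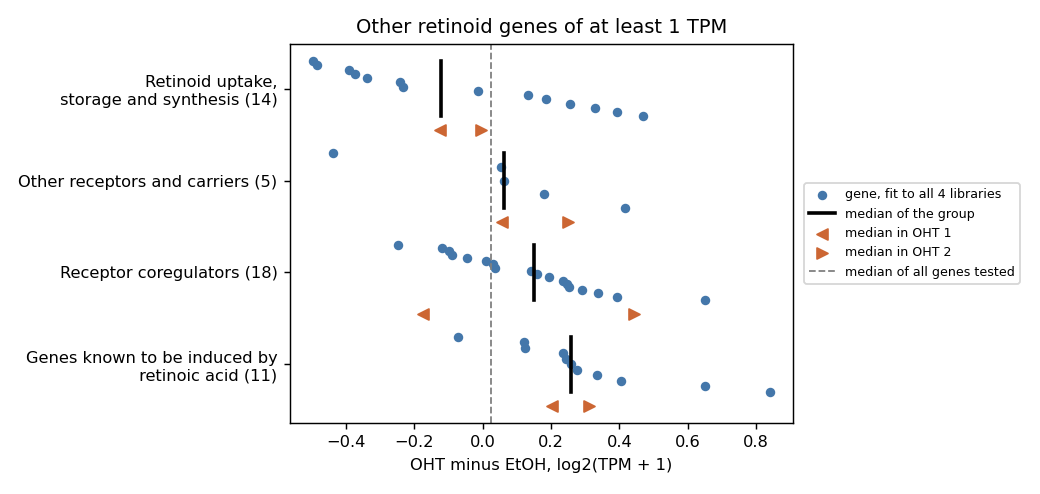
Difference between OHT and EtOH on the log2(TPM + 1) scale for the retinoid genes of at least 1 TPM beyond the 9, by group (number tested in brackets). Black bars are group medians, triangles the medians in OHT replicate 1 and OHT replicate 2, and the dashed line the median of all genes tested (0.02). The coregulators have medians of -0.17 and 0.44 in the 2 OHT libraries.

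The genes whose values over the 4 libraries lay nearest to those of Crabp1, by Euclidean distance between log2(TPM + 1) values centred on each gene's mean, were Npm2 (distance 0.07), the keratin gene Krt17 (0.07) and the histone gene H3c6 (0.08). Krt17 read 18.7 and 17.5 TPM with EtOH, against 34.4 and 26.6 TPM with OHT. Nearest to Crabp2 were Ccdc28b (0.08), Pcp4l1 (0.09) and Magea8 (0.09), and nearest to Stra6 were Mkrn3, Inpp5k and Xlr4b (each 0.03). Stra6 was under 1 TPM in every library, where the pseudocount shrinks differences, so its smaller distances do not mean a closer match. With 4 libraries, many genes lie almost as near, and H3c6 and Xlr4b belong to families of similar copies whose reads can be split.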

How the data were processed

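Poly(A) RNA libraries of 2 EtOH and 2 OHT samples were analysed. The deposited values are TPM made by the authors, each library summing to 1000000. Trim Galore and Salmon were used with GRCm38 (mm10), per the submitters' processing notes. Versions, annotation release and strand setting are details not given in the sources used here. In addition, the table holds 2 columns that match no sample analysed here, and these were not used. TPM keeps no depth, so no counting interval was computed.

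Values were analysed as log2(TPM + 1). Fold changes are on that scale and understate those of low genes. The 12029 genes whose mean reached 1 TPM were fitted with limma 3.58.1 in R 4.3.3 (two-sided moderated test, mean-variance trend, 2 residual and 4.01 prior degrees of freedom). Benjamini-Hochberg adjustment covered every gene fitted, and 0.05 was the threshold. The standard errors given are the moderated ones. With 2 libraries a group, the smallest p of an exact permutation test is 0.333, and none was run. The fit was tested on simulated data with equal and independent noise for every gene and library. The real OHT libraries differed more than the EtOH libraries and with transcript length. That test therefore checked the code and not the error rates in these data.

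The genes and lists were chosen with earlier results of these data known. From the wider list, genes past the threshold and up to 3 per direction and group with the smallest p are named, apart from some not reported here; the 3 nearest genes in pattern leave out predicted gene models. GENCODE mouse release 21 (GRCm38) supplied gene coordinates and transcript lengths (22213 identifiers matched once versions were dropped); upstream sequences come from RefSeq. Copies were sought with blastn 2.17.0 (95% identity over 50% of a transcript). Alternatives were pseudocounts, filters, scalings, limma settings, a replicate block, removal of trends with transcript length and GC content from each library, and leaving out each library.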

Additional observations from a re-analysis of the deposited data

How the results depend on the processing

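Crabp1 and Crabp2 kept their direction in all 14 alternatives, but most of these could not have turned it. Filters, limma settings and the replicate block leave the estimate of a gene unchanged. Pseudocounts and leaving out 1 library cannot turn a gene whose pairs do not overlap, which holds for Rxra too. Only the scalings and the removal of the length and GC trend could have done so. With 1 library left out, Crabp1 ranged from 0.53 to 0.83 and Crabp2 from -0.76 to -0.58. A pseudocount of 5 TPM moved Crabp2 to -0.45 and a pseudocount of 0.1 TPM to -0.75, since a larger pseudocount shrinks the log2 difference of low values. Rxra kept its direction in all 14 (0.22 to 0.65). Rara turned to -0.0202 with quantile normalization and -0.0820 after removal of the length and GC trend, and with 1 library left out it ranged from -0.0979 (OHT replicate 2) to 0.175 (OHT replicate 1). Rarg turned to -0.00302 with median of ratios scaling and -0.0841 without that trend, and ranged from -0.0844 to 0.129 over the same 2 omissions, with -0.0452 without EtOH replicate 2. Of the genes under 1 TPM, Stra6 ranged from -0.0614 without EtOH replicate 1 to 0.157 without EtOH replicate 2.

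The 5 calls over all genes became 0 without a filter on low values (1838 genes at an unadjusted p under 0.05), 3 with median of ratios scaling, with quantile normalization or without a mean-variance trend, and 146 after removal of the length and GC trend. With 1 library left out the count ranged from 34 to 2957; the lone library of a group is then assumed to vary like the other pair, and the count was 2957 and 2478 without OHT replicate 1 or 2, and 46 and 34 without EtOH replicate 1 or 2. Of the wider retinoid list, between 0 and 21 genes then passed (21 and 10 without OHT replicate 1 or 2, 0 without either EtOH library). That list's median ranged from -0.0623 without OHT replicate 2 to 0.289 without OHT replicate 1, where the median of all genes tested was -0.0941 and 0.141.

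With the replicate number as a block, 474 genes passed, and 1 of the wider retinoid list, Tgm2 (limma adjusted p = 0.0106). Library differences within the groups correlated at r = 0.29 over genes, but with 2 libraries a group the labels give the samples only a shared number, not a pairing. Depth is unknown, and the 4 genes under 1 TPM are limited by it.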
